A study of Apis mellifera with 6 samples.

Results

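Across the 16 chromosomes of the honey bee (Apis mellifera) genome, 934 stretches of 20 kb or more held no accessible site called in any of 6 brain ATAC-seq libraries. They were found by joining the peaks of all 6 lists that shared at least 1 bp into 59043 union sites and keeping every distance of at least 20 kb between the end of one site and the start of the next. Such long stretches, called gaps from here on, made up 1.58% of the 59027 distances between neighbouring sites. The members were chosen by the absence of sites and by length, so both are given as description and carry no test.

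The libraries came from central brains, dissected without optic lobes, of newly eclosed adult drones, workers and queens that shared 1 mother queen. There were 2 libraries per phenotype, and since 5 brains were pooled for each, errors describe pools and not single bees. Drones are the haploid males, and workers and queens are the diploid female castes. Drones and workers emerged from capped brood, and queens were reared by grafting larvae into queen cups. Peaks were called separately in each library on nucleosome-free fragments of at most 100 bp. In the worker and queen lists the peak names carried 1 shared sequencing run label, and in the drone lists they carried none. Whether the drone libraries were sequenced in the same run is not given in the sources used here. Wherever drones differ from the females below, phenotype and the presence of that label cannot be told apart.

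In ATAC-seq, Tn5 transposase inserts adapters where DNA is not wrapped around nucleosomes, which in insect genomes is mostly at promoters, enhancers and insulators. Sequence far from such elements, in compacted chromatin or deep inside very long genes, takes few insertions. Gene families that act in 1 tissue, such as the odorant receptors of the antenna, often lie in tandem clusters that are closed in other tissues.

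A gap states that no peak was called there, not that no fragment mapped there, because fragments outside peaks are not in the lists. From each peak's fold enrichment and p-value, the whole number of fragments over its summit could be recovered, and it was at least 6 or 7 in every library. Spread evenly over the genome size set for peak calling (2.7e+08 bp), the nucleosome-free fragments of a library would number 152 to 211 per 10 kb. By library, the number was 205 and 153 in drones, 156 and 152 in workers, and 211 and 178 in queens. Accessibility weaker than that of the weakest called peak was not detectable at this depth. Of the brain markers, the neuronal genes Syt1 and brp and the glial transporter gene Eaat-2 could be matched by symbol, and all 3 had a union site in the gene body or within 200 bp of it. So did 79.3% of all genes, so these 3 say little about the tissue. No base composition or unsequenced bases were analysed here, so the part that assembly gaps or unmappable repeats play in these stretches was not tested.

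The 934 gaps covered 30.8 Mb, which was 14.0% of the 220.5 Mb between the first and last site of the chromosomes. Their median length was 26.5 kb, with quartiles of 22.4 and 34.5 kb, against a median of 1839 bp for all distances between neighbouring sites. Lengths fell off steeply. There were 336 gaps of 30 kb or more, 88 of 50 kb or more, 16 of 100 kb or more, 8 of 150 kb or more and 3 of 200 kb or more. The 10 longest held 6.14% of the gap sequence. At the threshold, the shortest members measured 20006, 20015 and 20019 bp, and the longest distances left out measured 19995, 19995 and 19993 bp, so the number of gaps depends on where the limit is put.

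**Figure D1:**
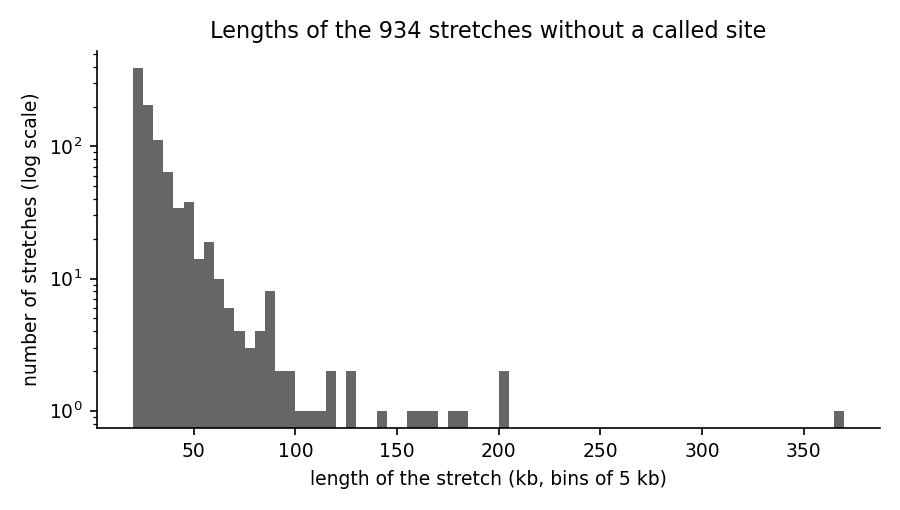
Number of gaps (y axis, log scale) by length in kb (x axis, bins of 5 kb) for the 934 gaps in the union of 6 libraries. Most gaps lie just above 20 kb, 16 reach 100 kb, and the longest stands alone at 365 kb.

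The longest gap lay on linkage group (LG) 10, at 1300162 to 1665513 in Amel_HAv3.1, and spanned 365 kb. In the libraries' own lists the stretch measured 365 and 373 kb in drones, 395 and 365 kb in workers, and 367 and 367 kb in queens. The groups overlapped, and no library had a site anywhere inside the 365 kb. Gene bodies covered 2.23% of this gap, at its edge in LOC100578623, and it held no whole gene. The nearest genes outside were LOC113219035 at 20.2 kb and the microRNA gene Mir3799 at 46.5 kb.

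The next in length was a gap of 204 kb on LG11 (4660068 to 4864388) with 4 whole genes, namely the pseudogenes LOC113219082 and LOC113219081, the protein-coding LOC100577161 and the long noncoding RNA LOC102654883. Its own-list length was 210.1 and 210.5 kb in drones, 218 and 219.7 kb in workers, and 219.9 and 220.0 kb in queens. Its neighbours LOC725680 and LOC113219114 lay 2.64 and 2.19 kb away. A gap of 201 kb followed on LG14 (259563 to 460277), with the protein-coding LOC551197 and the long noncoding RNAs LOC113219220 and LOC113219224 inside it. It measured 201 and 201 kb in drones, 201 and 329 kb in workers, and 201 and 270.1 kb in queens, and each of its 2 border sites was called in 5 libraries, since worker replicate 2 lacked one of them and queen replicate 2 the other. LOC102655020 began 0.062 kb from one edge and LOC102656835 11.9 kb from the other.

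Of the 10 longest gaps, 2 lay within a single gene. The gap of 184 kb on LG4 (939425 to 1122963) sat inside LOC100576498, and the gap of 159 kb on LG11 (8463025 to 8622498) inside LOC412893. Another pair touched no gene. These were a gap of 177 kb on LG10 (5442697 to 5620192), between the serotonin receptor gene 5-HT2beta at 18.5 kb and LOC724767 at 0.377 kb, and a gap of 144 kb on LG13 (1317079 to 1460579), between LOC727302 at 20.1 kb and LOC724619 at 32.4 kb. The last 3 touched genes with at least one edge. They were a gap of 167 kb on LG10 (4045423 to 4212798) that overlapped LOC409869 and lay 1.47 kb from LOC102654940, a gap of 163 kb on LG3 (769714 to 932841) that held LOC102654766 and overlapped LOC100577185 and LOC113218706, and a gap of 128 kb on LG4 (1626395 to 1754202) that overlapped LOC102656302 and ended 5.78 kb from LOC113218728.

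These long gaps differed in how firmly their edges were set. The 167 kb gap on LG10 measured 167 kb in each of the 6 lists and ended on both sides at a site called in all 6 libraries, with fold enrichments of 19.8 to 29.3 on the left and 5.05 to 15.3 on the right. By contrast, the 163 kb gap on LG3 measured 163 and 257 kb in drones, 257 and 257 kb in workers, and 257 and 257 kb in queens. Its left edge was a site of 78 bp called in drone replicate 1 with a fold enrichment of 4.55, and in the other 5 lists, which lacked it, the stretch ran on to 257 kb. The gap of 144 kb on LG13 measured 149 and 292 kb in drones, 184 and 280.3 kb in workers, and 296 and 291 kb in queens, and each of its edges was a site called in a single library.

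Over all 934 gaps, a library's own stretch at a gap was longer than the gap by a median factor of 1.22 and 1.32 in drones, 1.22 and 1.14 in workers, and 1.29 and 1.46 in queens. Own stretches within 10% of the gap's length numbered 365 and 300 in drones, 370 and 432 in workers, and 325 and 272 in queens. The union gaps are therefore the shared core of longer stretches in single lists. They made up 45.3% and 38.2% of the sequence in each drone library's own gaps, 44.6% and 51.6% in workers, and 38.8% and 34.5% in queens.

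Gaps lay close to one another. Another gap was within 10 kb of 341 gaps (36.5%) and within 50 kb of 559 (59.9%), while 7.75% of the sequence outside gaps was within 10 kb of a gap and 29.3% within 50 kb. When gaps at most 10 kb apart were joined, they formed 731 groups. Of these, 593 were single gaps, 138 held 2 or more, 38 held 3 or more and 8 held 5 or more. In 116 of the 918 pairs of neighbouring gaps on a chromosome, a single site separated one from the next.

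Each of the largest groups held 7 gaps. On LG14, 7 gaps filled 97.9% of 619 kb (10516 to 629755), with 11 sites between them and 12 whole genes inside. Drone lists had 7 and 6 of those 11 sites, worker lists 9 and 5, and queen lists 7 and 5, and 3 sites were called in all 6. On LG6, 7 gaps filled 94.7% of 195 kb (5668592 to 5863403), and of the 7 sites between them 4 and 2 were called in drones, 3 and 1 in workers, and 1 and 3 in queens, none in all 6. On LG4, 6 gaps filled 99.3% of 542 kb (1212348 to 1754202) with 8 sites between them, of which 4 and 4 were called in drones, 3 and 5 in workers, and 5 and 6 in queens. A group on LG9 also had 6 gaps, which filled 99.7% of 249.6 kb (25735 to 275379) with 5 sites between them and 2 whole genes inside. The LG4 group held no whole gene, whereas the LG6 group held 3. The sites between the gaps of the LG14 group had a median fold enrichment of 9.92, against 4.45 for LG6 and 6.30 for LG4.

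Gaps were unevenly spread along and among chromosomes. Their share of a chromosome ran between 7.97% on LG8 and 21.9% on LG9, and LG1, the longest, had the most gaps with 95. Each chromosome span was divided into 10 equal bins in the order of the assembly, and gaps took 30.2% of the first bin, 17.4% of the second, 13.3% of the fifth and 4.97% of the last. Of the 16 gaps of 100 kb or more, 8 were in the first bin and 4 in the second. The first bin was above the chromosome's own mean on 11 of 16 chromosomes and the last bin below it on 15 of 16. Gap sequence filled 80.2% of the first bin on LG14, 73.2% on LG9, 55.6% on LG3 and 54.6% on LG13, but 2.59% on LG1, 4.04% on LG11 and 4.53% on LG12. On LG16 the first site lay 171.6 kb from the start of the sequence. That stretch has no site before it, so it was not counted as a gap.

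Every library showed the same gradient in its own list. Own gaps covered 44.7% and 47.6% of the first bin in drones, 42.9% and 41.3% in workers, and 46.1% and 51.0% in queens. In the last bin they covered 16.6% and 20.5% in drones, 14.0% and 12.6% in workers, and 19.9% and 25.9% in queens. The first bin was the highest of the 10 and the last bin the lowest in all 6 libraries. These libraries share the same genome sequence and annotation, so the agreement is not 6 independent observations of the chromosomes.

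**Figure D2:**
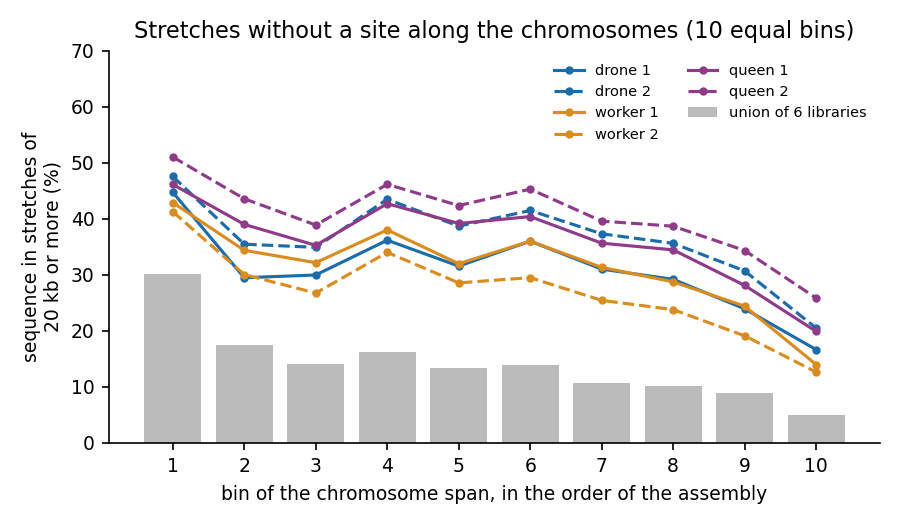
Percent of sequence in gaps of 20 kb or more (y axis) for each of 10 equal bins of the chromosome span (x axis, 16 chromosomes pooled), with grey bars for the union of 6 libraries and lines for each library's own list. The bars run between 30.2% in the first bin and 4.97% in the last, and all 6 lines have their highest point in the first bin and their lowest in the last.

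Gaps were poorer in genes than the rest of the chromosomes. Gene bodies covered 63.6% of the gap sequence and 78.8% of the other sequence, and gene midpoints numbered 25.9 per Mb in gaps and 60.4 per Mb elsewhere. Of 12255 genes on the 16 chromosomes, 444 (3.62%) lay wholly inside a gap, in 209 of the 934 gaps, and 1092 (8.91%) shared at least 1 bp with one. For protein-coding genes the share wholly inside was 3.42%. The genes inside had a median length of 2829.5 bp and the others of 3662 bp. A further 154 gaps touched no gene, and 170 met genes with their edges only.

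Among the positions counted, a gap most often lay inside a single gene. Wholly inside a single gene body lay 431 gaps (46.1%). The share of all distances between neighbouring sites that lie in a single gene was not counted, and gene bodies covered 76.7% of the span. Each gap was credited to the shortest gene that held it, which gave 263 genes with a median length of 154 kb. All genes had a median of 3.62 kb, but a gene that holds a gap cannot be shorter than 20 kb, so this contrast follows from the rule. Of the 393 genes of 100 kb or more, 179 were credited with at least 1 gap. Genes whose gaps all lay in a shorter gene as well were not counted, so 263 and 179 are lower limits. The protein-coding LOC724287 on LG11, 869.7 kb long, held 9 whole gaps of 352 kb in all. The serotonin receptor gene 5-ht7 on LG6, 399 kb long, held 8 whole gaps of 309.6 kb in all, and with the part of a gap that crossed its end, gap sequence made up 83.6% of its body. LOC100577185, a long noncoding RNA gene on LG3, was 98.8% gap. The gene table gives no exons, so whether these gaps lie in introns was not analysed here.

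Some genes of synaptic transmission met gaps in their bodies, and none was enclosed by a gap. None of the 29 matched neurotransmitter receptors, channels and synaptic adhesion genes lay wholly inside a gap, against 3.62% of all genes, which at 29 genes is close to none. Of the 29, 13 shared sequence with a gap, against 8.91% of all genes, and all 29 had a site, against 79.3% of all genes. They are long genes, with a median length of 63164 bp, and length was not matched in these shares. Of protein-coding genes of 20 kb or more, 0.416% lay wholly inside a gap, so long genes are seldom enclosed. After 5-ht7, with 333 kb of gap sequence in its body, the neuroligin gene NLG-4, a postsynaptic adhesion protein, had 151 kb, and nAChRa6, a subunit of the nicotinic acetylcholine receptor, had 143 kb. The dopamine receptor gene Dop3 had 70.3 kb of its 143 kb in gaps, NLG-3 had 56.5 kb, and Nrx-1, the presynaptic partner neurexin, had 48.2 kb of 338 kb. Both matched Hox genes, which set segment identity, were of the same kind, with 23.6 kb of gap sequence in Ubx and 35.6 kb in Antp.

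Odorant receptor genes were often enclosed. Of 34 odorant receptor genes matched by symbol, 23 (67.6%, 95% Wilson interval 50.8 to 80.9%) lay wholly inside a gap, against 3.62% of all genes, and 28 had no site in the gene body or within 200 bp, against 20.7% of all genes. Among protein-coding genes of 2000 to 4000 bp, the length class that holds the receptors' median of 2108 bp, 4.21% lay wholly inside. Odorant receptors are the ligand-binding subunits with which antennal sensory neurons detect volatile compounds. The 23 receptors are not independent cases, since 19 lay in 3 neighbouring gaps on LG2 and the other 4 in a gap each on LG4, LG7, LG11 and LG13. They share tandem copies of similar sequence, and reads were mapped with BWA at its default settings. Whether reads that fit several copies were kept for peak calling is not given in the sources used here, and their part in these gaps was not tested.

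The LG2 receptor cluster included both gaps with the highest gene counts of the 934. Its 3 gaps of 55.4, 22.1 and 61.3 kb filled 139 kb of a span of 159.6 kb and held 51 of the 60 whole genes in that span. The gap with the most genes, 24, was that at 10072832 to 10134156, with Or35, Or37, Or41, Or50, Or51, Or52, Or53 and Or55. In the gap at 9974597 to 10029964 were 20 genes, including Or4, Or5 and Or9 to Or14, and between them Or25, Or26 and Or27 lay in the gap at 10032551 to 10054645. The 5 sites between the gaps had fold enrichments of 4.36 to 10.2, and none was called in all 6 libraries. Both sites between the first and second gap were called in worker replicate 2 alone, so the stretch there measured 80.1 and 80.1 kb in drones, 93.0 and 55.4 kb in workers, and 93.0 and 98.1 kb in queens. The site between Or27 and the third gap with the highest enrichment, called in 5 libraries, reached 10.2 in worker replicate 1.

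Of the receptors elsewhere, Or131 lay in a gap of 67.4 kb on LG13 that measured 98.7 and 116 kb in drones, 71.6 and 67.4 kb in workers, and 98.6 and 67.4 kb in queens. Or130 lay in a gap of 30.6 kb on LG4, Or170 in one of 25.0 kb on LG7 and Or105 in one of 21.9 kb on LG11. Of the 11 receptors outside gaps, 6 had no site either. Among these were Or57 and Or58, next to the LG2 cluster.

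Odorant binding proteins, which are thought to carry odorants through the fluid around the sensory neurons, were split. Of 24 genes for odorant binding and chemosensory proteins, 6 (25.0%, 95% Wilson interval 12 to 44.9%) lay wholly inside, against 3.62% of all genes. These 6 are not independent cases, as the interval assumes, since all were in a single gap of 34.7 kb on LG15 (1928238 to 1962936). That gap held Obp15, Obp16, Obp17, Obp18, Obp19 and Obp21 and no other gene. In the libraries' own lists this stretch measured 36.0 and 50.9 kb in drones, 49.6 and 50.9 kb in workers, and 36.0 and 50.9 kb in queens. A further 9 of the 24 were outside gaps and also had no site, so that 62.5% of the list had none, against 20.7% of all genes. No chemosensory protein gene was enclosed, nor was the single matched gene of the gustatory and ionotropic receptors. At the 3.62% of all genes, so few genes would mostly give none.

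Of 13 matched royal jelly and yellow protein genes, 5 (38.5%, 95% Wilson interval 17.7 to 64.5%) lay wholly inside a gap, against 3.62% of all genes. These 5 lay in neighbouring gaps of a single cluster, so they are not independent cases as the interval assumes. Major royal jelly proteins (Mrjp) are secreted by the hypopharyngeal glands of nurse workers as larval food, and belong to the yellow protein family. The paper states that these glands were carefully removed when worker brains were dissected. A gap of 22.9 kb on LG11 (2254232 to 2277089) held Y-e3 and Mrjp3, and the next, of 22.3 kb (2283175 to 2305490), held Mrjp6, Mrjp5 and Mrjp2. In their own lists both gaps were part of 1 stretch of 74.7 and 74.9 kb in drones, whereas workers had 25.6 and 31.7 kb and queens 28.8 and 28.8 kb at the first gap, and workers 22.3 and 28.5 kb and queens 30.8 and 28.6 kb at the second. The ranges of drones and females did not overlap at either gap, but both gaps lay in the same drone stretch, so these are not separate observations. How often the ranges separate in this way over all gaps was not counted, so the separation is given as description.

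Within the stretch free of sites in both drone libraries (74.7 kb, 11 genes, of which 8 were royal jelly or yellow genes), the females had 8 sites, and 3 of them were called in all 4 female libraries. The first lay outside any gene, between the edge of the stretch and LOC726274, with fold enrichments of 6.30 and 5.38 in workers and 4.10 and 4.81 in queens. The second, within LOC726274, had 5.81 and 5.87 in workers and 8.50 and 8.40 in queens. The third, in Mrjp4, had 5.81 and 4.40 in workers and 6.88 and 4.47 in queens. This locus was singled out after its values were seen, so these values are a description.

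**Figure D3:**
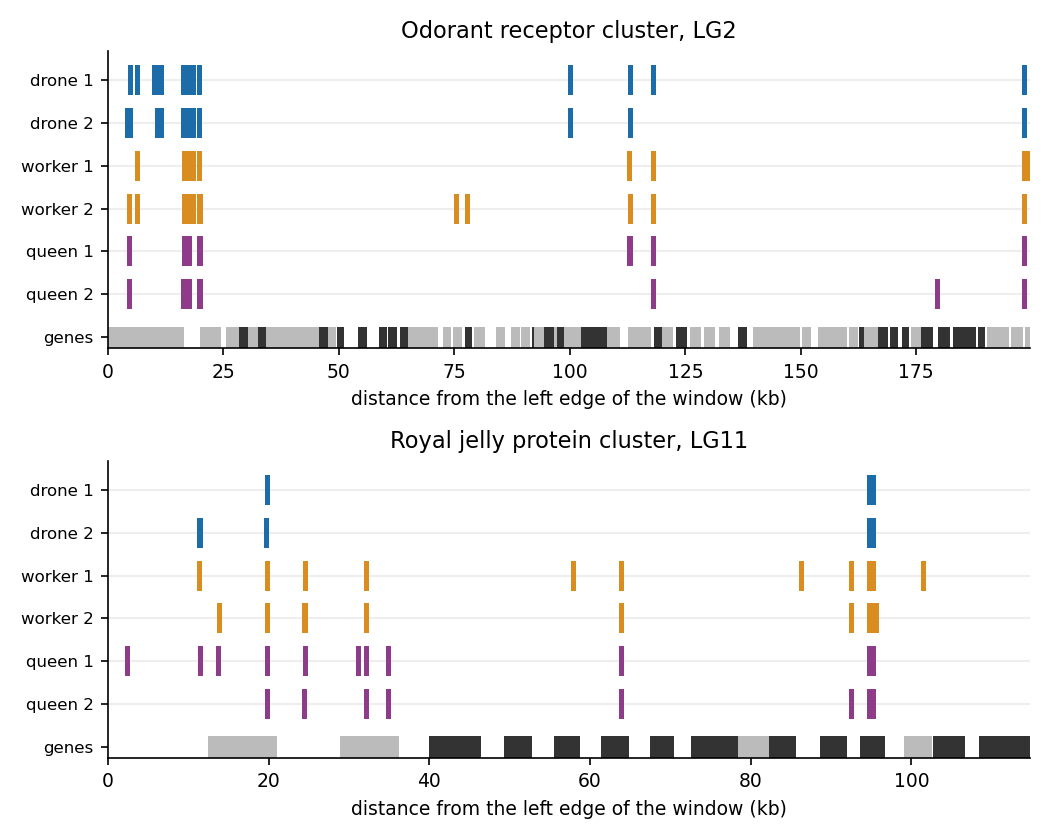
Called sites (coloured bars, at fixed width for visibility) in each library, drones above workers above queens, and genes (bottom row, black for odorant receptors in the upper panel and for royal jelly and yellow proteins in the lower, grey for other genes) by distance in kb from the left edge of the window (x axis). The receptor cluster on LG2 is nearly empty in all 6 libraries, and the drone rows are empty over 74.7 kb of the royal jelly cluster on LG11 where workers and queens have sites.

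Cuticle genes were represented by 3 of 22 (13.6%, against 3.62% of all genes), CPR17 and CPR18 in a gap of 32.9 kb on LG2 and the apidermin Apd-3 in one of 28.0 kb on LG4. A separate gene on LG4 with the same symbol in lower case, apd-3, lay outside gaps and had no site. None of 7 genes for immune peptides and hexamerins lay wholly inside, which at this number allows a share of up to 35.4% (Wilson interval). Of 236 microRNA genes, 7 (2.97%) lay wholly inside, namely Mir3769, Mir3770, Mir3757, Mir3762, Mir3739, Mir965 and Mir3780. Transfer RNA genes had 2 of 195 (1.03%), TRNAA-UGC and TRNAR-CCU, and long noncoding RNAs 89 of 1830 (4.86%). The shares of microRNAs and long noncoding RNAs were near the 3.62% of all genes. The longest genes wholly inside a gap were the long noncoding RNA LOC113219233 (88.6 kb, in a gap of 128 kb on LG14), LOC102654783 (44.7 kb, LG14), the long noncoding RNA LOC102654588 (39.6 kb, LG13), LOC412775 (33.1 kb, LG15) and LOC727052 (24.6 kb, LG11).

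**Figure D4:**
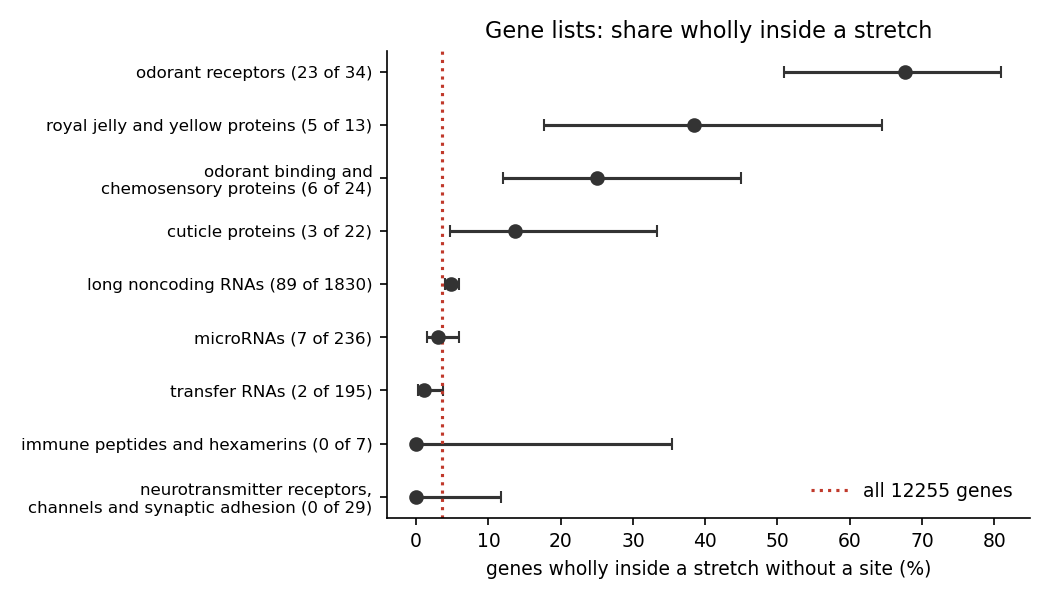
Percent of the genes of each list that lie wholly inside a gap (x axis, points, with 95% Wilson intervals as bars), for lists with at least 5 matched genes, and for all 12255 genes (dotted line, 3.62%). Odorant receptors stand highest at 67.6%, and no gene of the neurotransmitter list or the immune and hexamerin list is wholly inside. The intervals take the genes of a list as independent, and genes that share a gap are not.

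Several genes of known function outside these lists were also enclosed, and they were picked out after their values were seen. Dnmt1a, a maintenance DNA methyltransferase, lay in a gap of 21.0 kb on LG10 with 3 other genes (4 genes in all). NPF, the feeding neuropeptide F, lay in a gap of 21.7 kb on LG13, and Crzr, the receptor of the neuropeptide corazonin, in a gap of 37.9 kb on LG1. Apamin and Mcdp, whose bodies overlap and which encode venom peptides, shared a gap of 20.9 kb on LG12.

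Each library's own gaps were then compared between phenotypes. Drones had 1863 and 2164 own gaps, workers 1913 and 1719, and queens 2213 and 2450, with means of 2013.5 ± 213, 1816 ± 137 and 2331.5 ± 168 (SD, n = 2 each). The queen libraries had the most gaps, and the ranges of drones and workers overlapped. The difference among phenotypes did not pass 0.05 (exact permutation test over the 15 ways to pair 6 libraries, p = 0.133, Benjamini-Hochberg adjusted p = 0.2 over 3 tests), and 0.0667 is the smallest p this design allows. The p-value measures the spread between pools.

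Own gaps took 68.1 and 80.6 Mb in drones, 69.2 and 59.8 Mb in workers, and 79.6 and 89.5 Mb in queens, with means of 74.4 ± 8.89, 64.5 ± 6.67 and 84.5 ± 7.02 Mb (SD, n = 2 each). The drone range overlapped that of both female castes (exact permutation test, p = 0.267, adjusted p = 0.267). The number of gaps ran in the exact reverse order of the number of peaks, which was 37750 and 31389 in drones, 35981 and 38623 in workers, and 29725 and 27298 in queens on the 16 chromosomes. When every list was cut to its 28026 strongest peaks, own gaps averaged 2388 in drones, 2347 in workers and 2427 in queens (exact permutation test, p = 0.133, unadjusted), in the order of the full lists. The mean sequence became 95.5 Mb in drones, 91.6 Mb in workers and 89.8 Mb in queens (exact permutation test, p = 0.0667, unadjusted), so the place of queens turned from highest to lowest. The cut counted unplaced scaffolds too, where queens had the most peaks (793 and 705, against 571 and 513 in drones and 528 and 512 in workers). The cut lists were therefore not exactly equal on the 16 chromosomes, and the effect of this on the order was not tested. For the means per library, the order of phenotypes changed with this cut in gap sequence and not in gap number. In the merged lists, given below, the order in gap number changed as well.

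**Figure D5:**
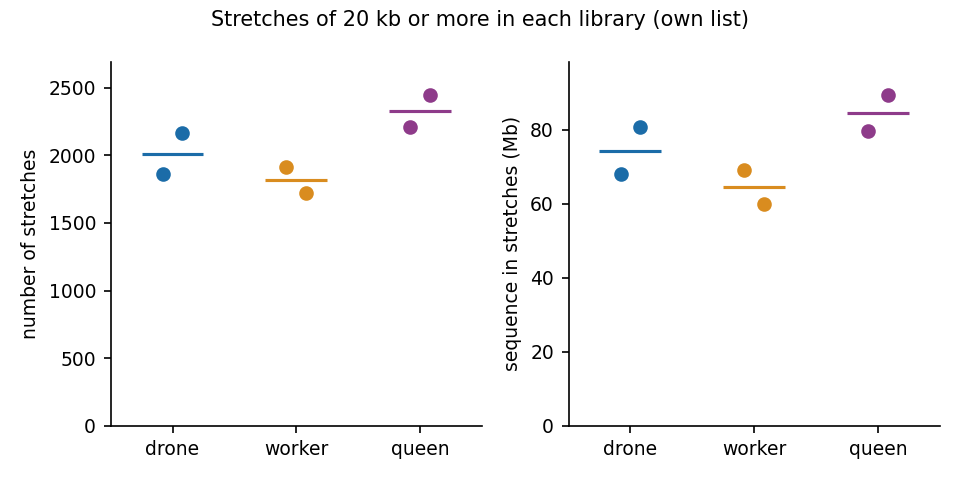
Number of own gaps of 20 kb or more (left) and their summed length in Mb (right) for each library (points) and the mean of each phenotype (lines, n = 2 libraries each). Queens have the highest points in the left panel, 2213 and 2450, and drones and workers overlap in both panels.

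Where the gaps lay was more alike within phenotypes than between them. The shared sequence of 2 libraries' own gaps, as a share of the sequence in either (Jaccard index), was 0.693 for the drone pair, 0.646 for the worker pair and 0.674 for the queen pair. It lay between 0.547 and 0.610 for the 12 pairs of libraries from different phenotypes, so every pair within a phenotype was above every pair between phenotypes. The means were 0.671 and 0.574, a difference of 0.0970. The true pairing gave the largest difference of all 15 pairings (one-sided exact permutation test, p = 0.0667, the smallest possible, adjusted p = 0.2), so the design cannot reach 0.05.

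With the 2 lists of a phenotype merged, drones had 1671 gaps (59.3 Mb, 3.97% of their distances between sites), workers 1440 (49.2 Mb, 3.17%) and queens 1924 (65.8 Mb, 5.5%). The queen share was the highest on 14 of 16 chromosomes and the drone share on 2, and the worker share was the lowest on 15. The longest were 365, 365 and 367 kb at the same place on LG10. No gap of either other phenotype touched 253 of the drone gaps (15.1%), 71 of the worker gaps (4.93%) and 384 of the queen gaps (20.0%). Queens also had the shortest lists. When every list was cut to its 28026 strongest peaks, unplaced scaffolds included, the merged lists gave 2146 gaps in drones, 2047 in workers and 2061 in queens, so drones had the most. The shares by chromosome and the counts of untouched gaps were not computed at equal list length.

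A stricter contrast is a gap of one phenotype that holds a site called in all 4 libraries of the others. There were 267 such gaps in drones (16% of their gaps), 23 in workers (1.6%) and 183 in queens (9.51%). They held 312, 24 and 198 sites. Of all sites called in the 4 other libraries, 1152 of 19059 (6.04%) had no drone peak, 164 of 17156 (0.956%) no worker peak and 1244 of 19975 (6.23%) no queen peak. Of these absent sites, 27.1% lay in a drone gap, 14.6% in a worker gap and 15.9% in a queen gap. The run label, missing from the drone lists, moves with the drone count, and its part in the result was not tested.

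Each of these counts rose when any 1 library was left out, which the construction favours. Leaving out a library of the phenotype itself can only lengthen its gaps, and leaving out another library asks for a site in fewer libraries. The drone count became 584 without drone replicate 1, and the queen count 549 without queen replicate 1, 396 without queen replicate 2 and 312 without worker replicate 1. The worker count became 113 without worker replicate 2, 77 without worker replicate 1, 62 without queen replicate 2, 47 without queen replicate 1 and 35 without drone replicate 2. With lists cut to equal length, unplaced scaffolds included, there were 342 such gaps in drones, 79 in workers and 65 in queens, so drones kept the highest count and the places of workers and queens changed.

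The sites that filled a gap of another phenotype had lower enrichment than all sites of the same 4 libraries, as did absent sites wherever they lay. Their median fold enrichment was 5.82 in drone gaps, 5.67 in worker gaps and 5.38 in queen gaps, against 7.35, 7.42 and 7.71 for all sites called in the same 4 libraries. The median over all absent sites, in gaps or not, was 5.38 for drones, 5.03 for workers and 5.28 for queens. Gene bodies held 67.6% of those in drone gaps, 66.7% of those in worker gaps and 80.3% of those in queen gaps, against 80.9%, 81.8% and 82.2% of all such sites. No test was made of these values. Most of these gaps were broken at a single place, namely 229 of 267 in drones, 22 of 23 in workers and 170 of 183 in queens.

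The longest drone gap of this kind spanned 172 kb on LG5 (7930524 to 8102246) and overlapped LOC552079. Its site of 289 bp in that gene had fold enrichments of 6.78 and 5.70 in workers and 4.45 and 4.85 in queens, and the female lists had 28 peaks in the stretch. The second spanned 169 kb on LG4 (1212348 to 1381054), touched no gene, and its site had 6.30 and 7.34 in workers and 12.5 and 11.9 in queens. The third, of 167 kb on LG9 (623829 to 791264) in LOC102655120, held 2 such sites. One had 3.39 and 4.89 in workers and 5.26 and 5.81 in queens, and the other 5.81 and 5.87 in workers and 6.47 and 5.36 in queens.

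In workers the longest were 70.4 kb on LG12 (2987942 to 3058318, overlapping LOC412735), 57.3 kb on LG11 (10841078 to 10898366, LOC100577879) and 48.3 kb on LG14 (6286336 to 6334670, LOC726153). The LG12 site had fold enrichments of 7.63 and 6.997 in drones and 8.94 and 5.36 in queens, and the LG11 site 6.20 and 6.26 in drones and 4.86 and 5.37 in queens. Of the 2 sites in the LG14 gap, the stronger had 8.68 and 7.71 in drones and 4.45 and 4.91 in queens.

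In queens they were 193 kb on LG7 (6283957 to 6476593, LOC724823), 168 kb on LG2 (2093729 to 2261850, LOC412594) and 111 kb on LG3 (6140627 to 6251672, with LOC551170, LOC113218644, LOC113218645 and LOC409653). The LG7 site had fold enrichments of 7.44 and 8.67 in drones and 6.78 and 5.87 in workers. That on LG2 had 6.61 and 5.78 in drones and 5.81 and 5.87 in workers, and that on LG3, in LOC551170, 4.55 and 5.30 in drones and 7.64 and 6.80 in workers.

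The sites at the edges of the union gaps differed from other sites in the number of libraries and in peak height. Both come from the same 6 lists as the gaps, so they are given as description and carry no test. Of 1636 sites with a gap on one side, 22.0% were called in all 6 libraries, and of 116 isolated sites with a gap on both sides, 14.7%, against 27.7% of 57291 other sites. Sites in a single library made up 36.5%, 36.2% and 29.8% of the same classes. Median fold enrichment over the local background was close, at 5.46 to 6.26 for peaks at isolated sites, 6.07 to 6.61 at flanking sites and 5.62 to 6.13 at other sites over the 6 libraries. Peak heights were lower, with median pileups of 11 to 14 fragments at isolated sites, 13 to 15 at flanking sites and 16 to 19 at others. At a similar fold enrichment a lower local background goes with a lower pileup, so the heights are not separate from the background.

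The local background recovered from each peak showed the surroundings of the edges. In MACS2 this background is the fragment density within 10 kb, unless the genome-wide mean is higher. That mean is taken over the genome size set for peak calling (2.7e+08 bp). A peak at that mean has no more fragments nearby than this average. The share of peaks at the mean was 90.2 to 96.5% at isolated sites, 41.5 to 64.9% at flanking sites and 12.4 to 22.7% at other sites over the 6 libraries. Background above 5 times the mean, which marks sequence where many fragments pile up, was found at 0 of 116 isolated sites, 10 of 1636 flanking sites (0.611%) and 1777 of 57291 other sites (3.102%). No peaks nearby lowers this background by itself, so these shares are a description of the edges and carry no test.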

How the data were processed

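Honey bee brain ATAC-seq peak lists, 1 per library and 2 libraries per phenotype, were analysed as deposited. The authors mapped reads with BWA 0.7.17 at default settings (version per the submitters' processing notes, which also name bcl2fastq 2.17) to Amel_HAv3.1, kept fragments of at most 100 bp and called peaks with MACS2. The deposited columns were the fold enrichment over local background, the −log10 p and −log10 q of each peak, and a score that is 10 times the −log10 q, each as MACS2 wrote it for the authors. The lowest deposited −log10 q was 2.00. Duplicate and mapping quality filters are not given in the sources used here.

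Peaks on 16 chromosomes were joined at 1 bp of overlap, and distances of 20 kb or more were kept. The chromosomes of the lists were matched to the RefSeq gene table (Amel_HAv3.1, 12255 genes used) by sites at gene ends, where every matched pair reached a fold of 3.57 or more and no other pair exceeded 1.35. Coordinates are 1-based. Gene lists were matched by symbol, so genes with a locus number only were left out of them, and no Osiris gene was matched. Values per library were compared by exact permutation over the 15 pairings. Pileups were solved from fold and p, and came out whole within 0.05 for 100% of peaks. Intervals and depths cover counting error only.

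Named were the 10 longest gaps, the 3 on either side of 20 kb, the 3 groups with the most gaps (with a tie for the third), the 3 longest gaps of each phenotype that hold a site of all 4 other libraries, genes in or next to these, the 5 longest enclosed genes and enclosed list members. Members and lists were chosen with earlier results of these data known. Same-numbered replicates did not deviate together (correlations over windows of 100 kb of -0.0433, 0.0053 and -0.0408), so numbers were not treated as pairs. Scripts used Python 3.11.15, numpy 2.4.6, scipy 1.17.1, pandas 2.3.3 and matplotlib 3.10.9, and were tested on simulated data. Alternatives were a −log10 q of 5 or more, equal list lengths, other gap minimums, summits, support by 2 libraries, each library left out, and a replicate block. Lists were cut to equal length before unplaced scaffolds were set aside, so they were not exactly equal on the chromosomes.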

Additional observations from a re-analysis of the deposited data

Results flagged for a closer look

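Peaks on unplaced scaffolds, which the gaps do not use because distances there have no chromosome order, numbered 3622 over the 6 lists, 571 and 513 in drones, 528 and 512 in workers, and 793 and 705 in queens.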

How the results depend on the processing

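Leaving out 1 library at a time gave 980 to 1053 union gaps, 32.4 to 34.8 Mb, 470 to 509 enclosed genes, 63.8 to 65.1% of gap sequence in gene bodies and 36.3 to 38.3% of gaps with a neighbour within 10 kb. It gave 294 to 584 drone gaps, 33 to 113 worker gaps and 228 to 549 queen gaps that hold a site of all remaining libraries of the others, a looser rule when one of those was left out. The exact p, over the 15 ways to split 5 libraries into 2 pairs and a single one, was 0.133 to 0.4 for the number of own gaps and 0.267 to 0.467 for their sequence, and queens stayed highest in both; the lone library is assumed to vary like the others.

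Stricter calls lengthened the gaps. With peaks of a −log10 q of 5 or more there were 1464 union gaps, 49.1 Mb, 702 enclosed genes, 68.6% in gene bodies and 45.4% with a neighbour. Own gaps then averaged 2383.5 in drones, 2239.5 in workers and 2717.5 in queens, with 96.0, 86.4 and 107 Mb in the same order. With lists of equal length the union gaps held 45.3 Mb, 67.9% in gene bodies and 42.3% with a neighbour. Own gaps averaged 2388 in drones, 2347 in workers and 2427 in queens, with 95.5, 91.6 and 89.8 Mb, the exact p for sequence was 0.0667 with the order of phenotypes changed, and 79 worker and 65 queen gaps held a site of all 4 others. Sites supported by 2 or more libraries gave 1583 gaps and 54.6 Mb.

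The limit on length set the counts. At 15 kb there were 1818 gaps and 45.9 Mb. At 30 kb there were 336 gaps and 16.6 Mb, 220 enclosed genes, 57.2% in gene bodies and 28.9% with a neighbour. Own gaps of 30 kb averaged 976 in drones, 771 in workers and 1079.5 in queens, with 49.2, 39.3 and 54.2 Mb, and merged lists gave 768 gaps in drones, 566 in workers and 806 in queens, of which 152, 8 and 79 held a site of all 4 others. Counting protein-coding genes only put 59.3% of gap sequence in gene bodies, and a distance of 50 kb gave 59.9% with a neighbour. Summits in place of intervals gave 951 gaps and 31.3 Mb.

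Chosen after seeing the data, the same alternatives gave 18 to 28 enclosed odorant receptors, and the first of the 10 bins of the chromosomes stayed above the last under each (22.2 against 1.42% at 30 kb). The Jaccard difference lay between 0.0845 and 0.109. With the replicate block the exact p was 0.333 for the number of own gaps, 0.333 for their sequence and 0.167, the smallest possible, for the Jaccard difference, so it changed no call. Base composition and unsequenced bases were not run, as no genome sequence was used here. Depth limits the gaps to the absence of called peaks, and the gene lists rest on few named genes.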
